A study of Drosophila melanogaster with 4 samples.

Results

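Cytochrome P450 genes were followed on cDNA arrays of adult male Drosophila melanogaster heads. Clones were taken as P450 clones where the platform annotation gave them a single gene symbol made of Cyp, a family number and a letter code with a further number, such as Cyp6a20. The rule found 134 clones of 72 genes, among 7558 clones with 1 symbol and 13824 clones in all. It used no measured value. The flies were unmated Oregon-R wild type males, aged 10 to 11 days, kept in vials of 30 for 3 days, either with 16 mg/ml gabapentin in their food or with normal food. The drug is given to people against seizures and nerve pain, and in mammals it binds an auxiliary subunit of calcium channels. RNA from 4 pools of heads of gabapentin-fed flies and 4 pools from normal food was hybridised in pairs to 4 arrays with 2 colours. The gabapentin pool was labelled with Cy5 and the normal food pool with Cy3 on arrays 1 and 2, and the dyes were exchanged on arrays 3 and 4. Each array thus holds both conditions and is 1 replicate, from its own pair of pools, per the labels.

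Cytochrome P450 enzymes are heme proteins that insert an oxygen atom into their substrates, with electrons passed on by a reductase or, in mitochondria, by a ferredoxin. In insects they make and break down ecdysteroids and other signals, build cuticular hydrocarbons and oxidise plant toxins and insecticides. The fly genes fall into 4 clans. The CYP3 clan, with Cyp6, Cyp9 and Cyp28, holds many enzymes of xenobiotic metabolism. The CYP4 clan holds Cyp4, Cyp311 and Cyp313, the mitochondrial clan holds Cyp12, and the CYP2 clan includes Cyp303 and Cyp304. A head contains eye, brain, glia, fat body, muscle and cuticle, and the arrays give no value per tissue, so fewer cells of a type and less RNA per cell cannot be told apart.

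The authors deposited a ratio between the dyes for each spot, after their own normalization and filter. Each value here is the mean over the pair of spots of a clone, or the single spot that had a ratio. It is given here as a log2 ratio minus the median of its array over all clones, since the array medians themselves stood at 1.14, 0.80, 0.52 and 0.78 on arrays 1 to 4. Whether the values of arrays 3 and 4 are Cy5 over Cy3 or had already been turned to gabapentin over normal food is not stated in the labels. Arrays 1 and 2 run the same way under either reading, and so do arrays 3 and 4. Values are therefore described as above or below the median of their array, no direction of a gabapentin effect is settled, and tests over all arrays are given under both readings. With 4 arrays, and fewer for most clones, their number limits precision. Photoreceptor markers had a value for 6 of 7 clones, and 5 had one on 3 or 4 arrays. They go with the head label but cannot tell heads from whole flies, since all pools were of heads. Of all clones with 1 symbol, 29.1% had a value. Of fat body markers 3 of 10 clones had a value, of neuron markers 1 of 3, of glia markers 1 of 5, of oenocyte markers 1 of 3 and of muscle markers 3 of 4.

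Few P450 clones passed the authors' spot filter on more than 1 array. A value on at least 1 array was found for 33 of the 134 clones, or 24.6%, against 29.1% of all clones with 1 symbol. These 33 clones represent 31 genes. Among them 25 clones had a value on 1 array, 4 on 2 arrays, 4 on 3 arrays and 0 on all 4. A value on 3 or 4 arrays was thus reached by 2.99% of P450 clones and by 5.91% of clones with 1 symbol. A missing value says only that the spot did not pass the filter, and not that the gene is silent.

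The share of clones with a value ran from 18.2% to 37.5% over the families, on small numbers. Of Cyp4, 10 of 40 clones had a value. Of Cyp6, 9 of 37 had one (24.3%). The Cyp9 family had 2 of 11 clones (18.2%), Cyp12 had 3 of 10, Cyp28 had 3 of 8 (37.5%) and the remaining families had 6 of 28 (21.4%). By clan, the CYP4 and CYP3 clans had 14 clones with a value each, of 53 and 63 clones. The mitochondrial clan had 3 of 12 and the CYP2 clan 2 of 6. Of the 4 clones on 3 arrays, 3 belong to the CYP3 clan and 1 to the CYP4 clan.

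Array 4 held more P450 clones than its yield over the whole slide. A value was present for 13 P450 clones on array 4, against 12, 14 and 6 on arrays 1, 2 and 3. As shares of all P450 clones these are 9.70% on array 4 and 8.96%, 10.4% and 4.48% on arrays 1 to 3. Clones with 1 symbol had values in 5.15% on array 4 and in 14.6%, 16.9% and 10.4% on arrays 1 to 3. The P450 share was thus the lower one on arrays 1 to 3 and the higher one on array 4, a difference with no test of its own here.

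**Figure D1:**
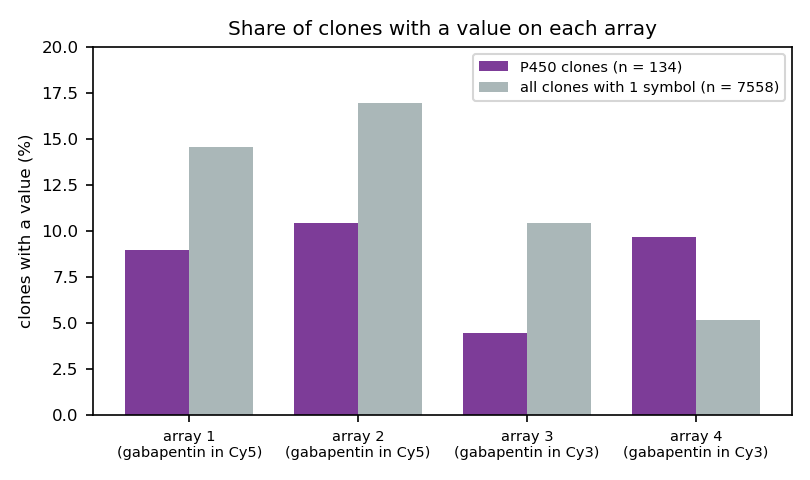
Share of clones with a value (percent, y axis) on each of the 4 arrays (x axis), for the 134 P450 clones and for all 7558 clones with 1 symbol. The P450 share is the lower one on arrays 1 to 3 and the higher one on array 4, at 9.70% against 5.15%.

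The P450 clones of array 4 were mostly seen nowhere else. Of the 25 P450 clones with a value on a single array, 12 had it on array 4 (48.0%). The single value was on array 1 for 5 clones, array 2 for 6 and array 3 for 2. Of the 1377 clones with 1 symbol measured on a single array, 206 had it on array 4 (15.0%). The 12 clones represent Cyp4ae1, Cyp4d8, Cyp4g15, Cyp6d2, Cyp9f2, Cyp12e1, Cyp28c1 with both of its measured clones, Cyp303a1, Cyp304a1, Cyp311a1 and Cyp313a4. The thirteenth value on array 4 was that of Cyp313a1. In the row order of the table, the 20 clones around a P450 clone measured on array 4 included a median of 2 with a value on that array, against 1 around all clones measured there. These medians were 1.5 and 4 on array 1, then 3.5 and 4 on array 2, and 5.5 and 3 on array 3. The neighbours counted include other P450 clones. On array 4, Cyp12e1, Cyp9f2 and Cyp313a1 stand in adjacent rows and count each other, as do Cyp6d2 and a clone of Cyp28c1. The medians thus do not describe surroundings apart from the P450 clones themselves. Of the 134 P450 clones, 40 stand in a row next to another P450 clone. Whether row order matches the printing order, and the part it has in these counts, was not tested.

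Different clones of the same P450 gene were rarely measured together. Several clones stood for 51 of the genes, and 23 of these genes had a clone with a value. In all 23, at least 1 other clone had none, whereas this held for 275 of the 364 genes with 1 symbol that have several clones and a value (75.5%). Only Cyp28c1 and Cyp311a1 had 2 measured clones, each with 3 clones in all. No value was found for 41 P450 genes. They were Cyp4aa1, Cyp4ad1, Cyp4c3, Cyp4d1, Cyp4d20, Cyp4e1, Cyp4e3, Cyp4p2, Cyp4p3 and Cyp4s3 of Cyp4. Of Cyp6 they were Cyp6a8, Cyp6a9, Cyp6a13, Cyp6a14, Cyp6a15Psi, Cyp6a18, Cyp6a21, Cyp6a23, Cyp6d4, Cyp6g2 and Cyp6v1. Of Cyp9, Cyp12 and Cyp28 they were Cyp9b1, Cyp9c1, Cyp9f3, Cyp9h1, Cyp12a4, Cyp12a5, Cyp12c1 and Cyp28d2. Of the remaining families they were Cyp301a1, Cyp305a1, Cyp308a1, Cyp309a1, Cyp310a1, Cyp312a1, Cyp313a2, Cyp313a3, Cyp313a5, Cyp313b1, Cyp316a1 and Cyp317a1.

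The values of the 4 P450 clones on 3 arrays ran from -0.33 to 0.41 around the array medians, as deposited. They belong to Cyp6a20, Cyp6d5, Cyp28d1 and Cyp313a1. None passed the test in either reading, and neither did any of the 854 clones tested. The median over the 4 clones was -0.05 with arrays 3 and 4 turned and -0.01 as deposited, against 0.00 and 0.09 over all tested clones.

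Cyp6a20, whose loss and gain alter male aggression and whose level follows social experience in flies, had -0.09, 0.22 and -0.16 relative to the medians of arrays 1, 2 and 3. Array 2 stood above its median and the others below. With array 3 turned the mean was 0.10 ± 0.16 (SD, n = 3), with a limma SE of 0.18, a 95% interval from -0.29 to 0.48 and an adjusted p of 0.999. As deposited the mean was -0.01 ± 0.20 (SD), with an interval from -0.33 to 0.32 and an adjusted p of 0.980.

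Cyp28d1, of a family known for enzymes induced by plant alkaloids in flies, had -0.23, -0.24 and 0.41 on arrays 1, 2 and 3. Both arrays with gabapentin in Cy5 stood below the median by nearly the same amount, and the array with gabapentin in Cy3 stood above it. Its mean was -0.29 ± 0.10 (SD, n = 3) with array 3 turned, with an interval from -0.67 to 0.09 (limma adjusted p = 0.999). All 3 values then lay below 0, and the lower end of the interval is a 1.59-fold difference. As deposited the mean was -0.02 ± 0.37 (SD), with an adjusted p of 0.971.

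Cyp6d5, a further enzyme of the Cyp6 family, had -0.02, -0.22 and 0.33 on arrays 1, 2 and 3. The order was that of Cyp28d1, with the dye-swapped array above its median and the others below. The mean was -0.19 ± 0.16 (SD, n = 3) with array 3 turned and 0.03 ± 0.28 as deposited, with limma adjusted p of 0.999 and 0.957.

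Cyp313a1, of the CYP4 clan, was the only member tested without array 3 and the only one tested with array 4. It had -0.06, 0.12 and -0.33 on arrays 1, 2 and 4. The value on array 4 was the farthest from the median and lay below it. The mean was 0.13 ± 0.20 (SD, n = 3) with array 4 turned and -0.09 ± 0.22 as deposited, with limma adjusted p of 0.999 and 0.796.

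**Figure D2:**
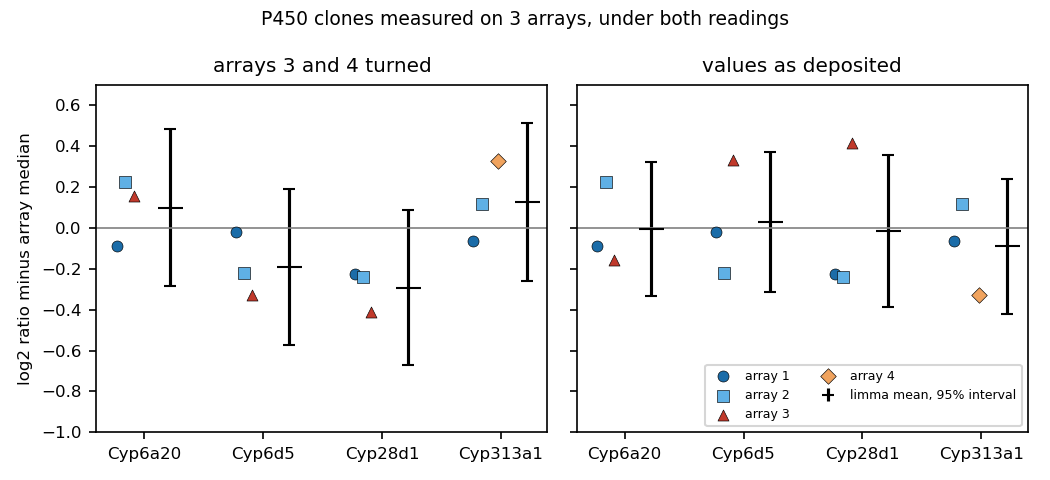
Log2 ratio minus array median (y axis) of the 4 P450 clones with a value on 3 arrays (x axis), with arrays 3 and 4 turned (left) and as deposited (right). Symbols are single arrays and bars are limma means with 95% intervals, and every interval includes 0.

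The fit over all clones gives the scale of these results. Of 854 clones measured on 3 or 4 arrays, 0 were called in either reading (limma, Benjamini-Hochberg adjusted p under 0.05, a share of 0%), and 0 of the 4 P450 clones. At an unadjusted p under 0.05 there were 19 clones with arrays 3 and 4 turned (2.22%) and 130 as deposited (15.2%). None were P450 clones, of which 4 are too few to set beside these shares. At that limit 42.7 clones would be expected with no difference, so the readings lie on either side of it. As deposited, arrays of opposite orientation correlated over clones at r from 0.09 to 0.28, and arrays of the same orientation at 0.20 and 0.35. The cause was not tested. A one-class SAM statistic called 1 and 0 clones, again with no P450 clone. The authors also used SAM, but with other settings, and their own run was not repeated. The distance of a clone's mean from either end of its 95% interval had a median of 0.39 log2 units in the turned reading and 0.33 as deposited, and differences within such intervals were not detectable.

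A dye term per clone separates the part that is opposite between orientations from the part that is shared. In that fit Cyp28d1 stood at -0.32 ± 0.17 (SE, n = 3), Cyp6d5 at -0.23, Cyp313a1 at 0.18 and Cyp6a20 at 0.11. Their limma adjusted p ran from 0.701 for Cyp28d1 to 0.983 for Cyp6a20. Only 1 of the 3 arrays of each carries gabapentin in Cy3, and each term rests on that array.

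On arrays 1 and 2, which share their dye orientation, 7 P450 clones had both values. Of all 1096 clones with both, 20 were called different from the array median (limma adjusted p under 0.05, or 1.82%), and 0 of the 7 P450 clones. Within these arrays gabapentin and dye cannot be told apart. The median of the 7 P450 means was -0.05, against 0.04 over all 1096 clones.

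Cyp12d1-d stood highest of the 7. It is a mitochondrial P450 whose raised expression gives resistance to insecticides in flies, and it has a nearly identical copy next to it, Cyp12d1-p, from which the clone may not tell it apart. It had 0.60 on array 1 and 0.27 on array 2. Both values were above the median, the first in the highest 5% of its array and the second at the 82.3rd percentile. The mean was 0.43 ± 0.23 (SD, n = 2), a 1.35-fold ratio, with a limma 95% interval from 0.06 to 0.80. The unadjusted p was 0.0229 and the adjusted p 0.364, so the clone was not called. It was the only P450 clone with an unadjusted p under 0.05, against 114 of 1096 clones, or 10.4%.

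The other 6 clones had means between -0.23 for Cyp28d1 and 0.07 for Cyp6a20. Cyp4d21, also known as sex-specific enzyme 1, is enriched in male heads and acts in male courtship. It had 0.08 on array 1 and -0.25 on array 2, on either side of the medians. Cyp4e2 had -0.11 and 0.02 on these arrays. All 6 intervals included 0, and the bound farthest from 0 was -0.60 for Cyp28d1. No P450 clone of the 134 had values on both array 3 and array 4. Few clones of any kind did, 235 of 13824, so the absence is not particular to P450 clones. Of these 235 clones, 8 were called (3.4%).

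Cyp4p1 was measured on 1 array of each orientation. It had -0.10 on array 2 and -0.12 on array 3, nearly the same value as deposited. Once array 3 is turned these become values of opposite sign, and the clone had too few arrays for the test.

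The 45 values of P450 clones lay mostly within the bulk of their arrays. Their median was -0.08, with a middle range from -0.26 to 0.09, and 17 of 45 lay above the array median as deposited (37.8%). Among clones with 1 symbol 46.9% of values did. With arrays 3 and 4 turned, the P450 median was -0.05 and 18 of 45 values lay above 0 (40.0%), against 50.2% for clones with 1 symbol. On arrays 1 and 2 alone, 8 of 26 P450 values lay above the median (30.8%), against 47.8%, and on arrays 3 and 4 alone 9 of 19 did (47.4%), against 530 of 1178. By array, the P450 median was -0.06, -0.16, -0.14 and 0.00 on arrays 1 to 4. By family, the median as deposited was -0.12 over 13 values of Cyp4, -0.05 over 13 values of Cyp6, 0.14 over 4 values of Cyp12 and -0.24 over 5 values of Cyp28. The remaining families had a median of -0.01 over 8 values, and Cyp9 had only 2 values. Turning arrays 3 and 4 gave 0.00 for Cyp4, -0.08 for Cyp6, 0.12 for Cyp12 and -0.23 for Cyp28, and it moved the remaining families to the other side of 0, at 0.05. Values of 1 clone on several arrays are not independent, and no test was made between families.

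**Figure D3:**
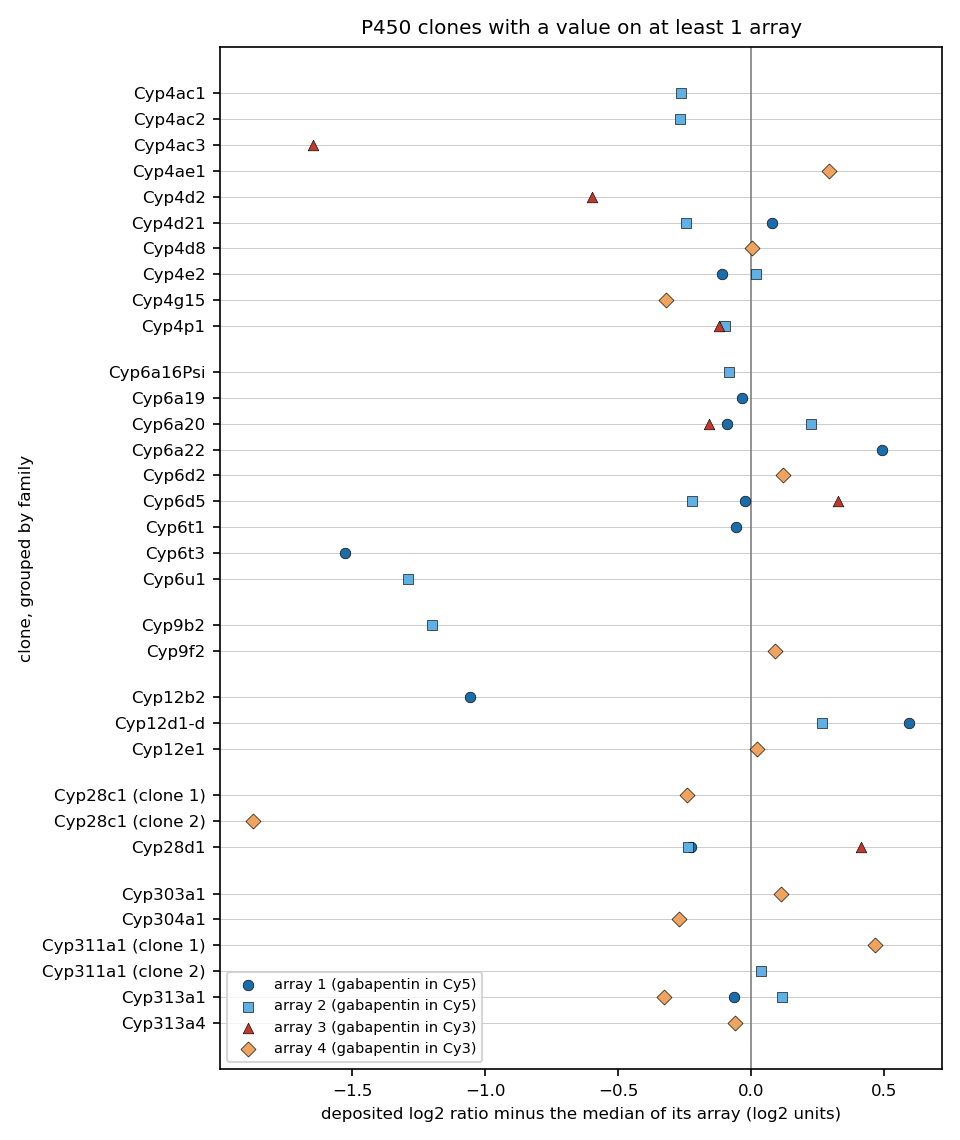
Log2 ratio minus the median of its array (x axis, log2 units) for every measured P450 clone (y axis, grouped by family), with 1 symbol per array. Most values lie within 0.5 of the median, and, as deposited, 6 lie at -1.06 or lower, each from a clone measured on a single array.

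As deposited, the lowest P450 values came from clones measured on a single array. Of the 45 P450 values, 6 lay in the lowest 5% of their array (13.3%) and 2 in the highest 5% (4.44%), against 4.97% and 5.04% of all 6094 values. In all 8 of 45 lay outside the central 90%, where 10% of all values lie. The split between the ends rests on the deposited direction of arrays 3 and 4. Once these are turned, Cyp4ac3 on array 3 and a clone of Cyp28c1 on array 4 move to the upper end, which leaves 4 low and 4 high values (8.89% each). On arrays 1 and 2, which both readings leave as they are, 4 of 26 P450 values were low (15.4%) and 2 were high (7.69%). As deposited, each of the 6 low values came from 1 of the 25 clones measured once (24.0%). Among all clones measured once, 11.6% of values were that low, and among all clones on 2 or more arrays 1.55% were. Of the 20 values of P450 clones on 2 or more arrays, 0 were that low. Low values thus go with single measurements over the whole slide too, and the part of this in the P450 values was not tested.

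These 6 values differ in how well their duplicate spots agree. Cyp4ac3 had -1.65 on array 3, with deposited spot values of -1.09 and -1.16. Cyp6u1 had -1.29 on array 2, with spots at -0.45 and -0.54. For both genes the spots lay close together. Cyp12b2, of the mitochondrial clan, had -1.06 on array 1 with spots at -0.17 and 0.34. Cyp6t3, which acts in ecdysteroid synthesis in larvae, had -1.53 on array 1 with spots at -0.95 and 0.18. Its spots differed by 1.13, so the value is uncertain. Cyp9b2 had -1.20 on array 2 from a single spot. A clone of Cyp28c1 had -1.87 on array 4, the lowest value of all members, from spots at 0.95 and -3.15. Its spots disagree by 4.10 log2 units, and another clone of Cyp28c1 had -0.24 on the same array from spots at 0.46 and 0.61. Over values whose spots differ by at most 1, a limit chosen after the values were seen, 3 of 42 P450 values were in the lowest 5% (7.14%), against 4.97% of all such values. With arrays 3 and 4 turned as well, 2 of 42 were low and 3 were high.

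**Figure D4:**
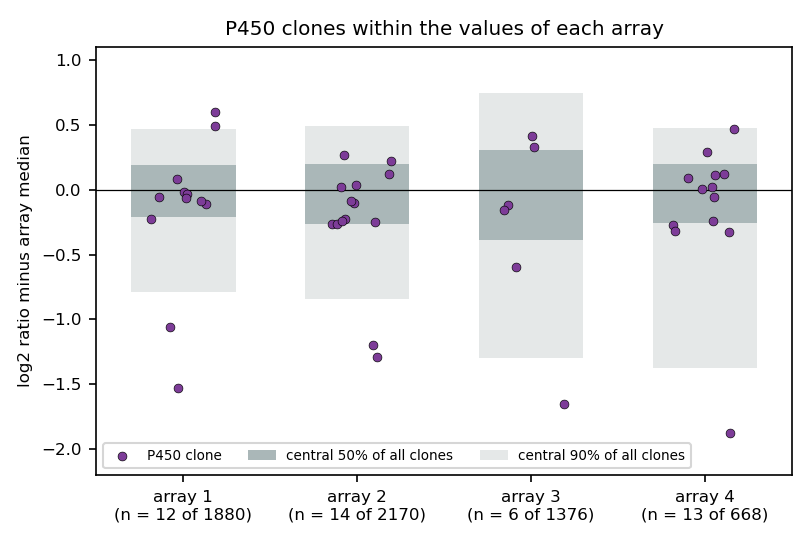
Log2 ratio minus array median (y axis) of the P450 clones on each array (x axis), as deposited, over bands that hold the central 50% and 90% of all clones on that array. Above the wider band lie 2 points, both on array 1. Below it lie 2 points each on arrays 1 and 2 and 1 point each on arrays 3 and 4.

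At the upper end stood 2 values, both on array 1. One is that of Cyp12d1-d, and the other is that of Cyp6a22, at 0.49 with spots at 1.73 and 1.54. Just inside the limit, a clone of Cyp311a1 had 0.47 on array 4, at the 94.5th percentile. Another clone of Cyp311a1 had 0.04 on array 2. These values come from different arrays and clones, so the difference between them cannot be assigned to either.

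Duplicate spots of P450 clones differed by a median of 0.18 log2 units over the 44 values with 2 spots. By array the median difference was 0.25, 0.08, 0.11 and 0.22 on arrays 1 to 4, against 0.19, 0.15, 0.15 and 0.18 over all clones. Differences over 0.5 were found in 7 of the 44 values. The spots of Cyp28d1 differed by 0.03, 0.04 and 0.10 on arrays 1 to 3. The spots of Cyp6d5 on array 1, at 0.86 and 1.38, differed by 0.52, more than its clone mean differed from the array median.

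**Figure D5:**
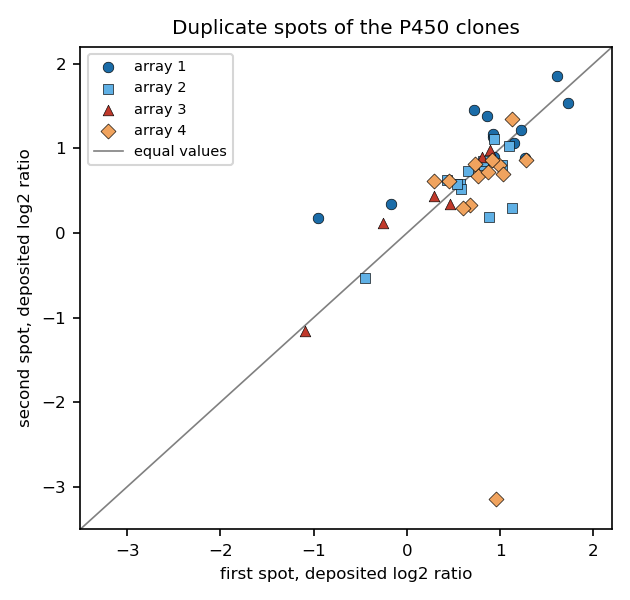
Deposited log2 ratio of the second spot (y axis) against the first spot (x axis) of each P450 clone, with 1 symbol per array and a line of equal values. Of 44 pairs, 2 differ by over 1 log2 unit, those of Cyp6t3 on array 1 and of a clone of Cyp28c1 on array 4.

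The remaining clones with nervous system or sensory roles had single values. Cyp4g15, which is expressed in the nervous system of flies, had -0.32 on array 4, at the 21.5th percentile. Cyp303a1, needed for sensory bristles, had 0.11 on array 4. Neither value has a second array beside it.

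Further clones measured once lay within 0.3 log2 units of the median of their array. On array 4, Cyp6d2 had 0.12, Cyp9f2 0.09, Cyp12e1 0.02 and Cyp4d8 0.00, while Cyp313a4 had -0.06 and Cyp304a1 -0.27. On array 1, Cyp6a19 had -0.03 and Cyp6t1 -0.05, and the spots of Cyp6t1, at 0.72 and 1.45, lay farther apart than those of Cyp6a19. Cyp6a16Psi, whose symbol marks it as a pseudogene, had -0.08 on array 2 with spots at 1.13 and 0.29. Such single values place a clone within 1 array and carry no replicate error.

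Genes that lie next to each other on a chromosome were also measured. By the names in RefSeq's annotation of Release 6, 16 of 30 measured P450 genes with a place there neighbour another P450 gene, and 5 neighbour a measured one. Cyp4ac1, Cyp4ac2 and Cyp4ac3 lie in a row on chromosome arm 2L. Cyp4ac1 had -0.26 and Cyp4ac2 -0.27 on array 2, but the spots of Cyp4ac1, at 0.88 and 0.19, differed by more than either distance from the median. Cyp4ac3 had its -1.65 on array 3, where neither of the others had a value. Cyp4d2 and Cyp4ae1 neighbour each other on chromosome X, with -0.60 on array 3 and 0.29 on array 4. Whether a clone also binds RNA of a related neighbour was not tested.

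Clones of other genes in the same detoxification route were also followed, in small lists. A value on at least 1 array was found for 29.1% of all clones with 1 symbol. Of glutathione transferases, which couple toxins to glutathione, 6 of 28 clones had a value and 2 were tested. GstT4 had 0.07, 0.03 and -0.03 on arrays 1 to 3, and GstE12 had -0.01, -0.28 and 0.02. Of those on fewer arrays, GstO3 had -2.43 on array 1, GstD1 had 0.19 on array 2 and 0.72 on array 3, GstD9 had 0.23 on array 3 and GstD3 had 0.27 on array 4. As deposited, GstO3 thus stood far below its array median, in a single value, and the 3 GstD clones above. With arrays 3 and 4 turned, GstD9 and GstD3 lie below and GstD1 has values of opposite sign. Of carboxylesterases 2 of 14 clones had a value, and alpha-Est3 was tested, with 0.17, 0.34 and -0.14 on arrays 1 to 3. Est-Q had -0.10 on array 2. The 3 tested clones, GstT4, GstE12 and alpha-Est3, had limma adjusted p of 0.999 each with arrays 3 and 4 turned, and from 0.715 to 0.958 as deposited, so 0 of 3 passed in either direction.

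The other lists of the route had no clone on 3 arrays. Over all clones with 1 symbol, 5.91% had a value on 3 or 4 arrays and 29.1% on at least 1. UDP-glycosyltransferases had a value for 3 of 12 clones, ABC transporters for 2 of 7, heme synthesis genes for 2 of 5, P450 redox partners for 1 of 4 and xenobiotic regulators for 1 of 7. Of the UDP-glycosyltransferases, which attach sugars to toxins, Ugt305A1 had -0.97 on array 2 and Ugt36D1 -1.08 on array 4, while Ugt37A1 had 0.10 on array 1. Of the ABC transporters, which pump compounds out of cells, Mdr49 had -1.32 on array 2 and MRP 0.05 on array 1. In both lists the values far from the median were low ones as deposited, each from a clone on a single array. Turning array 4 moves Ugt36D1 to the other side. maf-S, a small Maf protein that partners the stress regulator cnc, had 0.27 and 0.38 on arrays 1 and 2. Its mean on these arrays was 0.32 ± 0.08 (SD, n = 2), with a limma adjusted p of 0.570. Alas, which starts heme synthesis, had 0.14 on array 2 and 0.20 on array 4. FeCH, which completes heme synthesis, had 0.05 on array 3, and Cyt-b5-r 0.08 on array 1. For the ecdysteroid P450 genes with symbols of another kind, such as phm and dib, no clone with 1 symbol was found.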

How the data were processed

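Gene expression in male fly heads was measured as ratios on 4 cDNA arrays. The authors quantified spots with GenePix Pro 6.0, applied a ratio-based normalization in Acuity 4.0 and filtered spots on saturation, flags, regression R2 and signal to noise, per the series' design text. The deposited values were read as log2 ratios, 1 column per array. The log base is inferred: the largest size is 9.11, above the 4.82 that 16-bit ratios allow in log10. All columns were used.

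Spots in rows 2k-1 and 2k were averaged to clones, whose annotation symbols agree in all 7558 pairs with symbols, and each array's median over all clones was subtracted. Symbols were updated through Entrez IDs, found for 133 of the 134 P450 clones and 14894 of 15116 spots with 1 symbol; Cyp6a16Psi keeps the annotation's name. Letter codes of more than 1 letter, such as Cyp4ac1, were included. Coordinates are not given, since no build is named.

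The test was limma 3.58.1, run in R 4.3.3 over all clones measured on 3 or 4 arrays (intercept, eBayes, Benjamini-Hochberg over all clones, threshold 0.05), with arrays 3 and 4 turned and as deposited, and arrays of 1 orientation were tested apart. SE and intervals are limma's, moderated over all clones. In the dye term fit, and on arrays 3 and 4 alone, the listed clones shared the same SE, from a variance pooled over clones. SAM was computed here in a one-class form, with all sign changes of the arrays and the median SE as its constant. The authors used SAM 2.21 with 100 permutations. Tables and figures used Python 3.11.15. The fits were tested on simulated data. Alternatives changed the centring, scale, duplicate spots, minimum number of arrays, dye term, test and replicates.

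Every P450 clone with a value was to be named, as was every gene of the related lists on at least 3 arrays. The members, the lists and the tests were chosen with earlier results of these data known.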

Additional observations from a re-analysis of the deposited data

How the results depend on the processing

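No P450 clone was called under any setting that centred the arrays. Without centring, values keep the array medians of 1.14, 0.80, 0.52 and 0.78, and 833 of 854 clones were called as deposited, with all 4 P450 clones among them (Cyp6d5 at 0.85, Cyp28d1 at 0.80, Cyp6a20 at 0.81, Cyp313a1 at 0.81, median 0.81). With arrays 3 and 4 turned and no centring, 0 were called, the P450 median was 0.40, and Cyp6d5 and Cyp28d1 stood at 0.28 and 0.18, on the other side of 0. On arrays 1 and 2 the uncentred fit called 1060 clones and all 7 P450 clones, and on arrays 3 and 4 it called 164. With all arrays at the same spread these counts were 3 and 0, and 1 clone was called as deposited, where Cyp6d5 stood at -0.0095 and Cyp6a20 at 0.0074. Centring on the tested clones gave 3 calls as deposited and Cyp6d5 at -0.0774. A dye term gave 11 calls in the turned reading and SAM 1. Leaving out 1 replicate gave 0 to 11 calls in the turned reading (11 without replicate 3) and 0 to 13 as deposited (13 without replicate 1), none a P450 clone. As deposited, Cyp28d1 then ranged from -0.23 to 0.0934, Cyp6a20 from -0.12 to 0.0674, Cyp6d5 from -0.12 to 0.15 and Cyp313a1 from -0.20 to 0.0269, all on both sides of 0. In the turned reading Cyp6a20 ranged from 0.034 (without replicate 2) to 0.19 (without replicate 1), Cyp313a1 from 0.027 (without replicate 4) to 0.22 (without replicate 1), Cyp6d5 from -0.28 to -0.12 (without replicate 3) and Cyp28d1 from -0.33 to -0.23, and all 4 kept their sign. Of 76 means of single P450 clones under the other settings, 61 kept their sign and stayed on the same side of the threshold. Of the rest, 14 changed sign and 1 kept its sign but passed the threshold. Some of the 61 could not move. A minimum of 2 arrays, or leaving out an array where the clone had no value, left its data unchanged. Requiring all 4 arrays left no P450 clone. The count of P450 values in the lowest 5% was 3 with agreeing spots, against 6, then 4 with arrays 3 and 4 turned, 2 with both changes, and 4 to 5 without 1 replicate. These alternatives, and the turned medians of all P450 values and of families, were chosen after the values were seen. The causes of these shifts were not tested. Each log ratio already compares the paired pools of 1 array, so the fits on these ratios are the paired analysis.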
